A study of Mus musculus with 6 samples.

Results

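The genes described here encode the receptors by which cells sense microbes and tissue damage, namely C-type lectins, Toll-like receptors, NOD-like receptors and TREM receptors, together with 2 adaptor proteins that carry their signals. A gene was included when its symbol began with Clec, Tlr, Nlrp, Nod or Trem followed by a digit, or with Treml, or when it was Nlrc3, Nlrc4, Nlrx1, Naip1, Naip2, Aim2, Myd88, Cd209a or Tyrobp. This gave 80 genes of the 24647 named genes on the arrays, each read from 1 probe set, that with the highest mean where a gene had several.

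The arrays measured total RNA of whole metaplastic nodules dissected from the squamo-columnar junction (SCJ) of the mouse stomach. Nodules of 3 *K14-Cdx2::L2-IL-1β* samples (52540, 52541 and 52542) were set against those of 3 *L2-IL-1β* samples (52543, 52544 and 52545), all of the C57/BL6 strain. Both genotypes carried the *L2-IL-1β* transgene, in which the L2 promoter of Epstein-Barr virus drives the human cytokine in squamous cells of mouth, esophagus and forestomach, and both drank 0.2% deoxycholic acid (DCA), a bile acid, for 12 months from 8 weeks of age, until the age of 14 months. *K14-Cdx2::L2-IL-1β* mice also carried *K14-Cdx2*, in which the promoter of keratin 14 drives Cdx2, an intestinal transcription factor, in squamous basal cells. The comparison therefore asked how ectopic Cdx2 in squamous cells changed the nodules of an inflamed junction, and here how it changed the sensors of innate immunity in them. The nodules are called double transgenic (*K14-Cdx2::L2-IL-1β*) and single transgenic (*L2-IL-1β*) from here on.

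C-type lectins bind sugars, lipids and ligands of dead cells, and many activating ones signal through Syk and Card9. Toll-like receptors recognize microbial lipids, proteins and nucleic acids at the cell surface or in endosomes and, apart from Tlr3, signal through Myd88. NOD-like receptors and Aim2 sense microbial products in the cytosol, and several of them assemble inflammasomes that activate caspase-1 and release IL-1β and IL-18. The activating TREM receptors of myeloid cells have no signalling tail of their own and depend on Tyrobp. Neutrophils and macrophages carry many of these receptors, while some, such as Tlr5, Nlrp6 and Nlrp10, are known from epithelial cells.

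Cdx2 itself, on the whole-transcript probe set, read 9.04, 9.72 and 9.83 in the double transgenic nodules, against 6.74, 6.87 and 6.80 in the single transgenic nodules (log2 intensity), as the labels say. Array 52542 stood apart in pancreatic acinar genes, with a summed linear intensity over 6 such genes of 13263, against 554 to 708 on the other arrays, and array 52541 alone was high in 4 Y-linked genes (2811, against 108 to 116). Array 52540 correlated better with the single transgenic arrays (mean r = 0.990 over all probe sets) than with its own genotype (mean r = 0.987). Markers of squamous epithelium (6 genes, summed linear intensity 41340 to 47503 in double transgenic and 53940 to 56236 in single transgenic nodules) and of gastric and columnar epithelium (9 genes, 41798 to 72815 in double transgenic and 38622 to 53103 in single transgenic nodules) were bright in sum on every array. Of the 9, Cdh17 alone had a mean below the median of all probe sets, 6.64, and it was below it on every array. The sources call the arrays biological replicates but do not say whether the nodules of an array came from 1 mouse or several. The p-values therefore set the difference between genotypes against the spread among the 3 arrays of each, moderated over all probe sets. That spread is not known to be one between single mice.

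Of the 80 sensor genes, 5 fell in double transgenic nodules at an adjusted p under 0.10 and none rose (limma, Benjamini-Hochberg over all probe sets). They were Clec4e (Mincle), a lectin for mycobacterial glycolipids and ligands of dying cells; Trem1, which amplifies inflammatory signals in neutrophils and monocytes; Trem3, its neighbour in the mouse genome; Clec2d, a ligand of an inhibitory receptor of natural killer cells; and Tlr6, the partner of Tlr2 for diacylated lipopeptides. The 5 are 6.25% of the sensors, where 1.44% of all named genes fell and 0.706% rose by the same test. Of these 5, Clec4e and Trem1 were lower by 2-fold or more, where 0.398% of all named genes both passed the test and were lower by that size. At an unadjusted p under 0.05 (limma), 18 sensors (22.5%) were lower and 0 were higher. Of all named genes, 8.07% were lower at that level and 15.1% differed in either direction. In SAM, the permutation method of the study's own analysis, 9 sensors were lower and 0 higher. SAM passed 1765 of all probe sets, where limma passed 631.

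To show the start sites of the genes that fell, their promoter windows of 300 bases are given, from 250 bases before to 50 after each start, from RefSeq on GRCm38.p6. Windows were found for 64 of the 80 sensors; Tlr6 has 2, of which that with a match is shown, and of the 5 genes Trem3 was not matched. Capitals mark matches, on either strand, to 3 motifs of myeloid and inflammatory transcription factors: TTNNGNAA for C/EBP, GAGGAA for PU.1 and TGANTCA for AP-1.
Clec4e (chr6:123289822-123290121, minus strand): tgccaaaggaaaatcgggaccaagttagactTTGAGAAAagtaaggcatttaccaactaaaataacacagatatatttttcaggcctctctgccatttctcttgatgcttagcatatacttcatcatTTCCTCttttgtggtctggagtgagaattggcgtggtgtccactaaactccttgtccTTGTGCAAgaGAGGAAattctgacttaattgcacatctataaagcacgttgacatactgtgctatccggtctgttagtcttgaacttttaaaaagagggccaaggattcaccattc
Trem1 (chr17:48232489-48232788, plus strand): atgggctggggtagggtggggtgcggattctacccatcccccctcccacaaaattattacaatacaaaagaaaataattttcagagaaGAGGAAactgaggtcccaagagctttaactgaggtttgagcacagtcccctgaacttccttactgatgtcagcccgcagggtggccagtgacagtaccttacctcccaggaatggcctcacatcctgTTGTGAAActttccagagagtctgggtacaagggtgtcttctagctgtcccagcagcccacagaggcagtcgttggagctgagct
Clec2d (chr6:129180365-129180664, plus strand): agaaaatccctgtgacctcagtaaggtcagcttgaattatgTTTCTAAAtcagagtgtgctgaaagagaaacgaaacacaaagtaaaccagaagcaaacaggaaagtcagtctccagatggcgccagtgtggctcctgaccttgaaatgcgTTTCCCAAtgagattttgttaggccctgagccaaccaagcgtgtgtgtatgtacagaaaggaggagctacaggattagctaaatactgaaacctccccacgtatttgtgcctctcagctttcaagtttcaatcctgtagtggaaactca
Tlr6 (chr5:64959117-64959416, minus strand): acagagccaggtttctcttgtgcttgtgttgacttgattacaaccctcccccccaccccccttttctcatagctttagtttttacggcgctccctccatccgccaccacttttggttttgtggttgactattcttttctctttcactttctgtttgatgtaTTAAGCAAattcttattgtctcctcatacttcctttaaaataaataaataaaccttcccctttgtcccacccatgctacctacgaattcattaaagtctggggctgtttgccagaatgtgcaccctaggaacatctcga
Clec4e held 2 C/EBP and 2 PU.1 matches, Trem1 held 1 of each, Clec2d held 2 C/EBP matches, and the window of Tlr6 held 1. No match to TGANTCA was found in these windows. Such letters are common: of all 32851 promoter windows 40.7% held the C/EBP letters, 28.3% the PU.1 letters and 7.81% the AP-1 letters, and of the 76 windows of the sensors 55.3% held the first, 38.2% the second and 18.4% the third. In Clec4e the C/EBP match TTGTGCAA, from 66 to 59 bases before the start, lay next to the PU.1 match from 56 to 51 bases before it. A match is a string of letters and not a measured site.

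The C-type lectins of the Dectin-2 cluster on chromosome 6 gave the largest change among the sensors. Clec4e (chr6:123231807-123239888, NCBIM37) read 5.88, 6.06 and 6.35 in the double transgenic nodules, against 7.54, 7.25 and 7.75 in the single transgenic nodules. The highest double transgenic array lay 0.90 below the lowest single transgenic array, so the genotypes did not overlap. All its double transgenic values were below the median of all probe sets, 6.64, and all its single transgenic values above it. The log2 fold change was -1.42 ± 0.17 (SE), 2.68-fold lower in double transgenic nodules, with a 95% interval of -1.82 to -1.02 and an adjusted p of 0.034 (limma).

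Clec4d (MCL), which forms a receptor complex with Clec4e, read 5.62, 6.03 and 5.80 in double transgenic nodules, against 6.26, 6.27 and 6.93 in single transgenic nodules. All double transgenic arrays were below all single transgenic arrays, but the difference of -0.67 ± 0.20 did not pass the test (adjusted p = 0.23, limma). The mean of its probe set, 6.15, was below the median of all probe sets, 6.64. Clec4n (Dectin-2), a receptor for fungal mannans 34770 bases from Clec4e, read 6.77, 7.64 and 7.49 in double transgenic nodules, against 7.61, 7.29 and 7.71 in single transgenic nodules, and only array 52540 lay outside the single transgenic range. Its log2 fold change was -0.24, with an interval of -0.81 to 0.34, which leaves a fall of up to that of Clec4d possible, and without array 52540 it was 0.03. Clec4a3, a member of the DCIR group, differed by -0.53 (adjusted p = 0.55) with double transgenic arrays from 7.41 to 8.72, a spread that covered all 3 single transgenic arrays but the highest. Clec4b2 had the highest log2 fold change of the 9 genes of the cluster (0.15, adjusted p = 0.72), on a probe set below that median on every array. Over the 9 genes, 1 fell, 0 rose and 8 did not pass, and the median log2 fold change was -0.24, against -0.0047 over all named genes.

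In the Dectin-1 cluster, further along chromosome 6, none of 6 genes passed. Clec7a (Dectin-1), the receptor for fungal β-glucan, read 7.00, 7.94 and 7.56 in double transgenic nodules, against 8.29, 7.92 and 8.63 in single transgenic nodules. Array 52541 reached into the single transgenic range, and the difference of -0.78 ± 0.27 had an adjusted p of 0.29. Clec12a, an inhibitory receptor of myeloid cells, differed by -0.29 (adjusted p = 0.62), set mainly by array 52542 at 6.22, while the other 5 arrays lay between 6.89 and 7.13. Clec9a, the receptor for exposed actin on cross-presenting dendritic cells, differed by -0.03 (interval -0.31 to 0.25), and Clec1a by 0.10 (interval -0.10 to 0.30).

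Among 5 other lectins of myeloid and sinusoidal cells, Clec5a, an activating receptor of neutrophils and monocytes that signals through Tyrobp, came closest to the threshold. It read 6.60, 6.75 and 6.43 in double transgenic nodules, against 7.14, 6.99 and 7.33 in single transgenic nodules, with no overlap. Its log2 fold change was -0.56 ± 0.12 and its adjusted p 0.11 (limma), just outside the threshold that Trem3 met at 0.097. Cd209a, a mouse homologue of DC-SIGN, read 9.82, 9.45 and 9.62 in double transgenic nodules, against 10.13, 9.92 and 9.89 in single transgenic nodules, a difference of -0.35 ± 0.12 (adjusted p = 0.26). Its other probe set did not show this order, with 8.92, 8.92 and 6.32 in double transgenic nodules, against 8.62, 8.99 and 8.36 in single transgenic nodules. Clec10a, a galactose-type lectin of macrophages and dendritic cells, and Clec4f, the lectin of Kupffer cells, differed by -0.15 and -0.06 (adjusted p = 0.65 and 0.80). Both were below the median of all probe sets on every array.

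The Clec2 family includes ligands of NKR-P1 receptors, which natural killer and other lymphoid cells carry. Of its 6 genes 1 fell. Clec2d (chr6:129130633-129136552, NCBIM37) read 9.80, 9.93 and 9.60 in double transgenic nodules, against 10.42, 10.36 and 10.46 in single transgenic nodules. The single transgenic arrays lay within 0.11 of each other and all above the double transgenic arrays, and the log2 fold change was -0.64 ± 0.10 (1.56-fold lower, interval -0.87 to -0.41, adjusted p = 0.055, limma). Its neighbours Clec2e and Clec2g were lower by a larger amount but with far wider spread. Clec2e read 8.13, 8.90 and 7.14 in double transgenic nodules, against 8.90, 8.93 and 9.21 in single transgenic nodules (-0.95 ± 0.41, adjusted p = 0.38). Clec2g read 9.62, 9.69 and 8.50 in double transgenic nodules, against 10.05, 9.88 and 10.30 in single transgenic nodules (-0.81 ± 0.32, adjusted p = 0.34). In both genes array 52542 was the lowest by a wide margin, and without it the differences were -0.50 and -0.43. Clec2h was the highest of the family by log2 fold change (0.17, adjusted p = 0.56), and Clec2l was the only one of the 80 sensors with all double transgenic arrays above all single transgenic arrays, by a difference of 0.10 (adjusted p = 0.54). Clec2h and Clec2l were below the median of all probe sets on every array.

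Of 6 further lectin-named genes, of stroma, endothelium and other cells, none passed. In this class 5 had a positive log2 fold change, and their median was 0.04. Clec3b (tetranectin), a plasminogen-binding protein of mesenchymal cells, had the highest value of all 80 genes, 0.36 (interval -0.20 to 0.91, adjusted p = 0.57), with array 52540 the highest at 8.33, and 0.13 without that array. Clec14a, of endothelial cells, differed by -0.10, and Clec16a, a regulator of mitophagy, by 0.04 (adjusted p = 0.76 and 0.90).

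**Figure D1:**
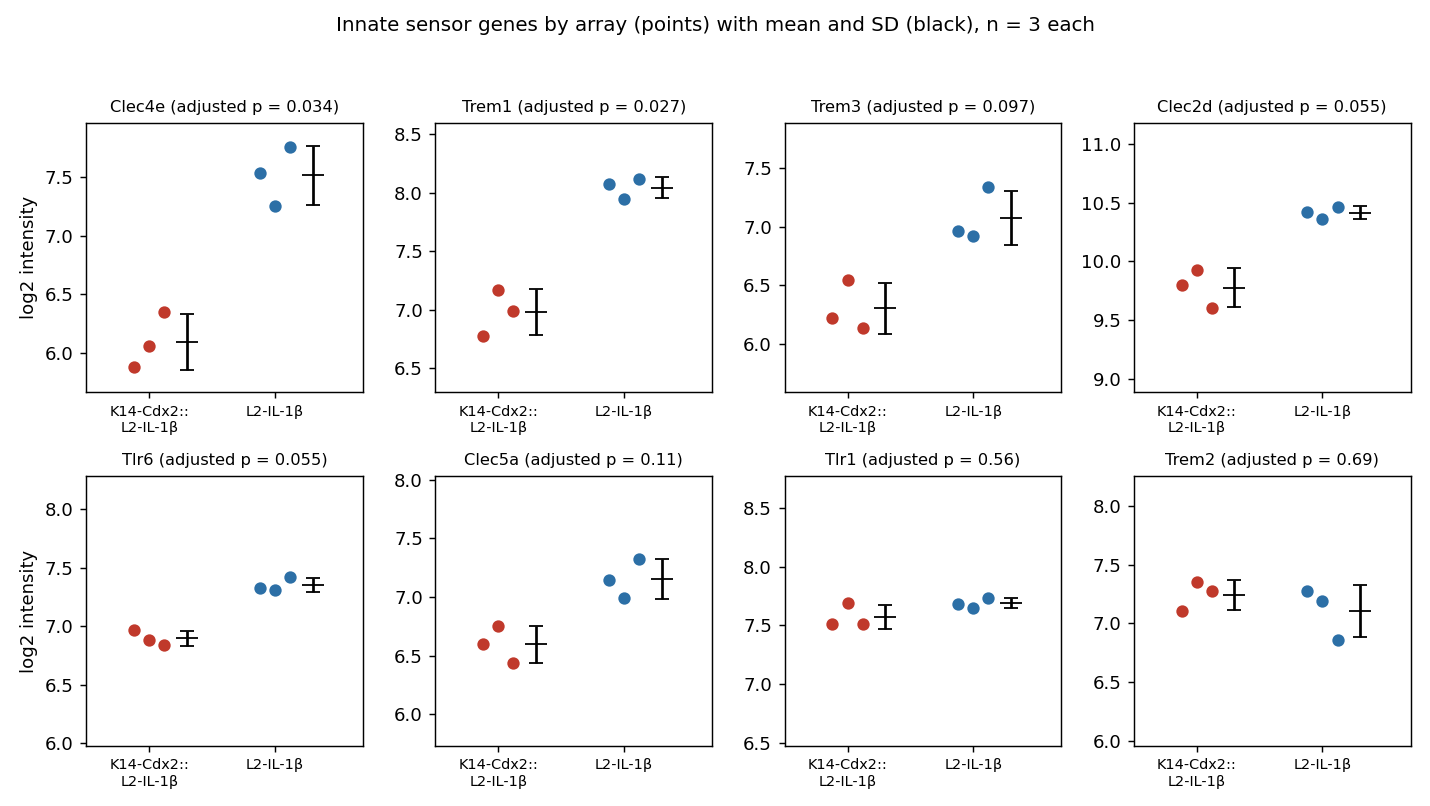
Log2 intensity of 8 sensor genes on each array (points), with the mean and SD (n = 3) in black, *K14-Cdx2::L2-IL-1β* nodules in red at the left of each panel and *L2-IL-1β* nodules in blue. In the panels of Clec4e, Trem1, Trem3, Clec2d and Tlr6, which passed, and of Clec5a, which did not (adjusted p = 0.11), all red points lie below all blue points, while those of Tlr1 and Trem2 overlap.

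Of the 5 Toll-like receptors of the cell surface, 1 fell and all had a negative log2 fold change, with a median of -0.18. Tlr6 (chr5:65344345-65351287, NCBIM37) read 6.97, 6.88 and 6.84 in double transgenic nodules, against 7.32, 7.31 and 7.42 in single transgenic nodules. The change was small, -0.46 ± 0.07 (1.37-fold lower, interval -0.62 to -0.29), but the spread within each genotype was only 0.06 (SD, n = 3 each), and the adjusted p was 0.055 (limma). Tlr1, the other partner of Tlr2, which lies 20345 bases from Tlr6 and is its closest relative, read 7.51, 7.69 and 7.51 in double transgenic nodules, against 7.68, 7.65 and 7.74 in single transgenic nodules. The difference of -0.12 had an interval of -0.30 to 0.06 and an adjusted p of 0.56, and the difference between the changes of Tlr6 and Tlr1 was not tested.

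Tlr2, shared by both pairs, differed by -0.18 (interval -0.48 to 0.13, adjusted p = 0.61). Tlr4, the receptor for lipopolysaccharide, read 8.13, 8.38 and 8.84 in double transgenic nodules, against 8.55, 8.52 and 8.46 in single transgenic nodules, so that the double transgenic arrays spread on both sides of the single transgenic arrays, and its difference was -0.06 (interval -0.47 to 0.35). Tlr5, the receptor for flagellin, read 7.71, 7.82 and 7.42 in double transgenic nodules, against 8.10, 7.93 and 8.18 in single transgenic nodules. These did not overlap, and the difference of -0.42 ± 0.12 did not pass (adjusted p = 0.21).

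None of the 7 endosomal Toll-like receptors passed, and their median log2 fold change was -0.08. Tlr13, which in mice recognizes bacterial ribosomal RNA, was the lowest of them. It read 7.26, 7.64 and 6.79 in double transgenic nodules, against 7.90, 7.88 and 8.32 in single transgenic nodules, with no overlap and a difference of -0.80 ± 0.23 (adjusted p = 0.20). The receptors for single-stranded RNA and for CpG DNA, Tlr7 and Tlr9, differed by -0.03 (interval -0.26 to 0.21) and -0.21 (interval -0.63 to 0.20). Tlr3, the receptor for double-stranded RNA, read 9.47, 9.67 and 9.73 in double transgenic nodules, against 9.51, 9.69 and 9.32 in single transgenic nodules, the only positive change of the class (0.12, interval -0.16 to 0.40). Array 52542 was the lowest of the 6 arrays for 6 of these 7 genes.

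None of the 9 inflammasome sensors passed. Naip1, which in mice detects the needle protein of bacterial secretion systems, read 6.46, 6.38 and 6.66 in double transgenic nodules, against 7.94, 6.97 and 6.97 in single transgenic nodules. The groups did not overlap, but array 52543 lay far above the others of its genotype, and the difference of -0.79 ± 0.26 had an adjusted p of 0.26 and was -0.47 without that array. Naip2, which detects the inner rod protein, differed by -0.02 (interval -0.69 to 0.65), and Nlrc4, which both activate, by 0.19 (interval -0.46 to 0.83). The probe sets of the Naip genes can share signal, because these genes are close copies. Nlrp3, the sensor of membrane damage and crystals, read 5.62, 5.77 and 5.77 in double transgenic nodules, against 6.03, 5.89 and 5.87 in single transgenic nodules, a narrow separation with a difference of -0.21 ± 0.08 (adjusted p = 0.31), on a probe set below the middle of the arrays. Aim2, the sensor of cytosolic DNA, read 8.12, 8.61 and 7.95 in double transgenic nodules, against 8.94, 8.65 and 8.12 in single transgenic nodules (-0.34, adjusted p = 0.61), and Nlrp6, of intestinal epithelium, differed by 0.03 (interval -0.28 to 0.34). The probe set of Nlrp6 was below the median of all probe sets on every array.

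Among 6 other NOD-like receptors none passed, and the median log2 fold change was -0.25. Nlrp10, a member without leucine-rich repeats that is known from keratinocytes, read 10.49, 10.37 and 9.19 in double transgenic nodules, against 10.93, 10.70 and 10.63 in single transgenic nodules. All double transgenic arrays were lower, array 52542 most of all, and the difference of -0.74 ± 0.34 did not pass (adjusted p = 0.41) and was -0.32 without that array. Nod2, the sensor of muramyl dipeptide, read 8.15, 7.94 and 7.65 in double transgenic nodules, against 8.37, 8.28 and 8.15 in single transgenic nodules (-0.36 ± 0.14, adjusted p = 0.33). A second probe set of Nod2 did not show this order, with 6.74, 7.02 and 7.02 in double transgenic nodules, against 6.99, 6.97 and 6.91 in single transgenic nodules, and the mean of both probe sets differed by -0.19. Nod1, which senses another fragment of peptidoglycan, differed by 0.05 with an interval of -0.17 to 0.27. Nlrx1, a mitochondrial member that restrains antiviral signalling, read 8.58, 8.72 and 8.40 in double transgenic nodules, against 8.88, 8.96 and 8.94 in single transgenic nodules (-0.36 ± 0.09, adjusted p = 0.17).

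The 13 Nlrp genes of germ cells and early embryos were dim on every array, with means over the 6 arrays of 4.10 to 6.19, below the median of 6.64 over all probe sets. Their log2 fold changes lay between -0.13 (Nlrp9b) and 0.18 (Nlrp4g), none of them passed and none separated the genotypes. Nlrp4b, whose probe set had the highest mean of them, differed by -0.05 (interval -0.38 to 0.28). Several members of this group are near-identical copies, among them Nlrp4e, which had 6 probe sets.

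In the TREM family, 2 of 6 genes fell, and both lie side by side on chromosome 17, with 853 bases between them. Trem1 (chr17:48371903-48386091, NCBIM37) read 6.78, 7.17 and 6.99 in double transgenic nodules, against 8.07, 7.94 and 8.12 in single transgenic nodules. The gap between the genotypes was 0.78, and the log2 fold change was -1.06 ± 0.11 (2.09-fold lower, interval -1.33 to -0.80), with the lowest adjusted p of the 80 genes, 0.027 (limma). Trem3 (chr17:48386944-48398207, NCBIM37), an activating receptor of mouse macrophages, read 6.22, 6.55 and 6.14 in double transgenic nodules, against 6.96, 6.92 and 7.34 in single transgenic nodules. These did not overlap either, and the log2 fold change was -0.77 ± 0.15 (1.71-fold lower, interval -1.14 to -0.41, adjusted p = 0.097). All double transgenic values of Trem3 were below the median of all probe sets, 6.64, and all single transgenic values above it. Trem1 and Trem3 are related genes, and whether their probe sets share signal was not tested.

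Trem2, the lipid receptor of macrophages and microglia, 99635 bases from Trem1, read 7.10, 7.36 and 7.27 in double transgenic nodules, against 7.27, 7.19 and 6.85 in single transgenic nodules. The genotypes overlapped and the difference was 0.14, with an interval of -0.17 to 0.45 that does not reach the fall of Trem1 or Trem3. Treml2, of lymphoid and myeloid cells, differed by -0.12 (interval -0.31 to 0.08), on a probe set below the median of all probe sets on every array.

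Both adaptors had negative log2 fold changes that did not pass. Myd88 read 10.55, 10.92 and 10.89 in double transgenic nodules, against 11.18, 11.24 and 11.28 in single transgenic nodules, with no overlap and a difference of -0.45 ± 0.11 (adjusted p = 0.155). Tyrobp, the adaptor of Trem1, Trem3 and Clec5a, read 9.29, 9.81 and 9.03 in double transgenic nodules, against 9.87, 9.78 and 10.27 in single transgenic nodules. Array 52541 reached into the single transgenic range, and the difference was -0.60 ± 0.22 (adjusted p = 0.31).

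**Figure D2:**
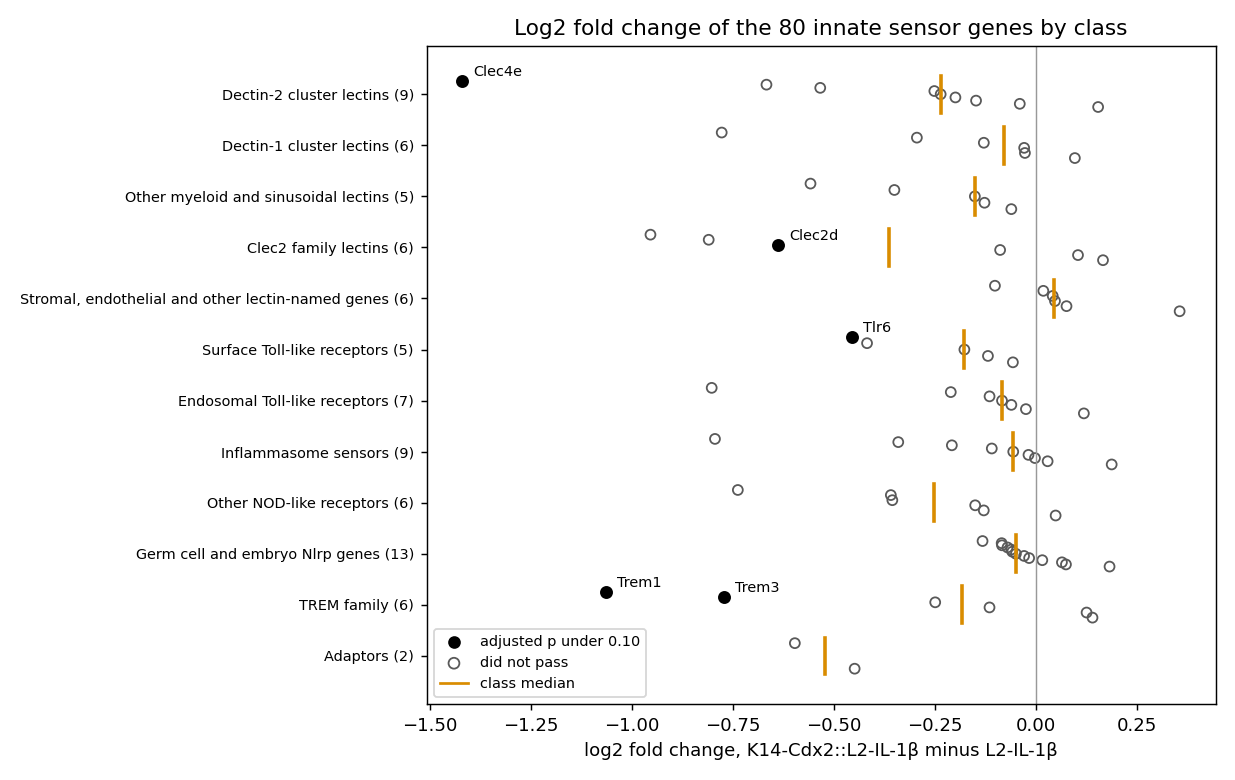
Log2 fold change (*K14-Cdx2::L2-IL-1β* minus *L2-IL-1β*) of all 80 sensor genes by class, with the number of genes in brackets, filled points for the 5 genes that passed and an orange bar for the class median. Class medians lie between -0.52 for the 2 adaptors and 0.04 for stromal and endothelial lectins, and the germ cell Nlrp genes lie close to 0.

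Over all 80 sensors, 61 log2 fold changes (76%) were negative and 19 positive, with a median of -0.11 and a range of -1.42 to 0.36. Of all named genes, 51.5% had a negative log2 fold change. For 16 sensors (20%) every double transgenic array was below every single transgenic array, which held for 12.0% of all named genes, and for 1 sensor (1.25%) every double transgenic array was above, which held for 9.21%. The 16 were the 5 genes that fell with Clec4d, Clec5a, Cd209a, Clec2g, Tlr5, Tlr13, Naip1, Nlrp3, Nlrp10, Nlrx1 and Myd88. An exact permutation test (two-sided) on 3 and 3 arrays has a smallest possible p of 0.10, the value that any complete separation gives, so it adds nothing to these counts. The double transgenic arrays were not alike: array 52542 was the lowest of the 6 for 35 of the 80 genes, 52540 for 17 and 52541 for 10, and they lay below all single transgenic arrays for 51, 36 and 30 genes.

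**Figure D3:**
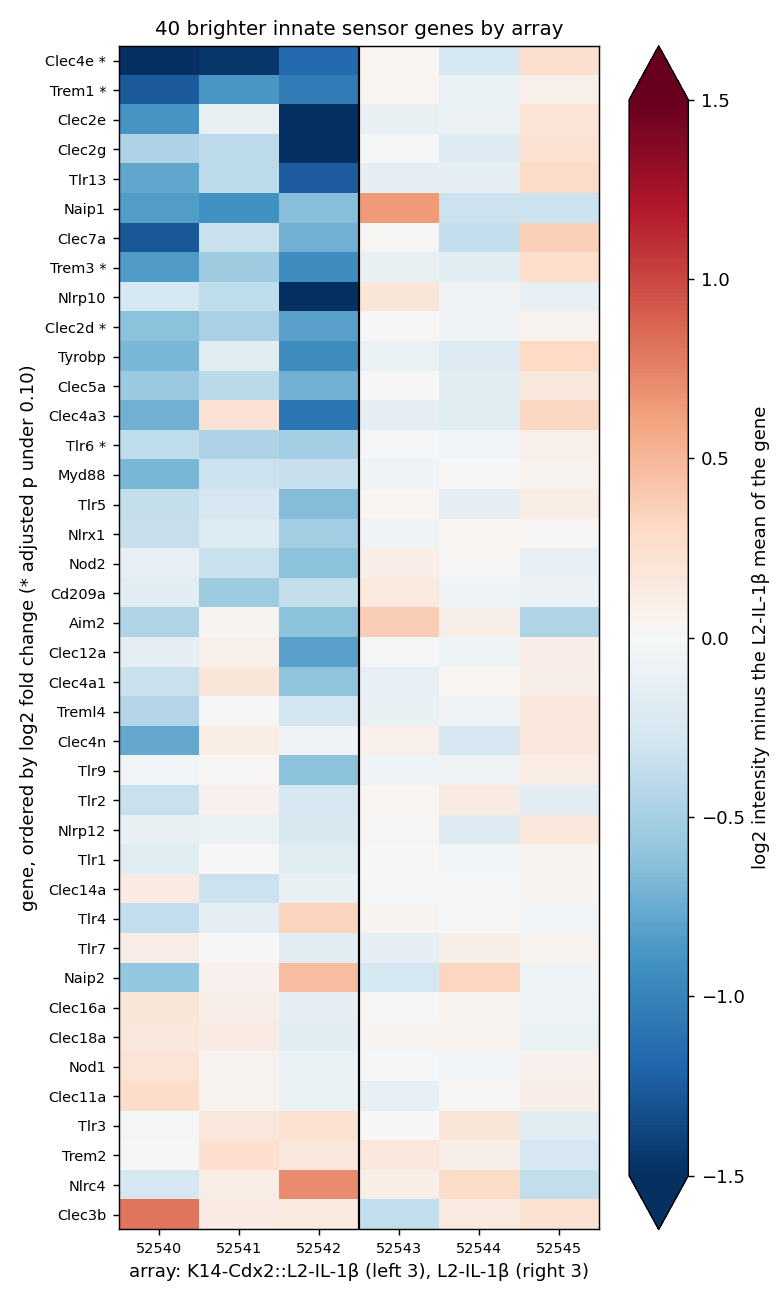
Log2 intensity of the 40 sensors whose mean was above the median of all probe sets, minus each gene's *L2-IL-1β* mean, on the 3 *K14-Cdx2::L2-IL-1β* arrays (left) and the 3 *L2-IL-1β* arrays (right), ordered by log2 fold change. Clec4e and Trem1 at the top are blue on all 3 *K14-Cdx2::L2-IL-1β* arrays, while Clec2e, Clec2g and Nlrp10 are darkest on array 52542 alone.

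The 5 calls did not hold in every reduced set of arrays. Without array 52540, 52541 or 52542 of the double transgenic nodules, 6, 1 and 4 sensors fell, and without 52543, 52544 or 52545 of the single transgenic nodules 0, 1 and 0 did. Trem1 still passed without any 1 of the double transgenic arrays, Clec4e without 52540, 52542 or 52544, Clec2d and Tlr6 without 52540 or 52542, and Trem3 in none of the 6 cases. The highest adjusted p over all alternatives was 0.175 for Trem1, 0.191 for Clec4e, 0.241 for Clec2d, 0.238 for Tlr6 and 0.297 for Trem3. The sizes moved less: over the alternatives Clec4e ranged from -1.55 to -1.30 and Trem1 from -1.16 to -0.96 (log2 fold change). Of all 34365 probe sets, 631 passed in either direction with all arrays. Without 52540, 52541 or 52542, 2026, 72 and 631 of them passed, and without 52543, 52544 or 52545, 13, 47 and 40 did. The counts of sensors thus moved with those of all probe sets. Without 52542, the array with acinar signal, Clec4e, Trem1, Clec2d and Tlr6 passed and Trem3 had an adjusted p of 0.158 (limma).

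A further list of 36 adaptor and signalling genes that are not part of the family gave 3 that fell and 1 that rose, with 32 that did not pass. Their median log2 fold change was -0.15, against -0.0047 over all named genes. Some of the 36, such as Cd14 and Cd36, act beside the receptors and not downstream of them. By the same test 1.44% of all named genes fell and 0.706% rose. All double transgenic arrays were below all single transgenic arrays for 10 of the 36 genes (27.8%) and above them for 5 (13.9%). Of all named genes, 12.0% lay below and 9.21% above in this way. Of the 36 genes, 33 had a mean above the median of all probe sets. Among named genes above that median, 14.7% lay below and 11.5% above. Il1b, the mouse cytokine released by inflammasomes, read 7.45, 8.05 and 7.97 in double transgenic nodules, against 9.44, 8.93 and 9.94 in single transgenic nodules, a log2 fold change of -1.61 ± 0.28 (adjusted p = 0.070, limma). The transgene encodes the human protein, and whether its RNA binds this mouse probe set was not tested. Il1rn, the antagonist of the IL-1 receptor, read 10.32, 10.71 and 10.24 in double transgenic nodules, against 11.09, 11.17 and 11.11 in single transgenic nodules (-0.70 ± 0.13, adjusted p = 0.080).

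Irak4, the first kinase recruited by Myd88, read 9.59, 9.62 and 9.57 in double transgenic nodules, against 9.92, 9.93 and 9.92 in single transgenic nodules, a small and tight difference of -0.33 ± 0.06 (adjusted p = 0.070). Il18, the other inflammasome cytokine and a product of epithelial cells, rose. It read 10.98, 10.87 and 10.63 in double transgenic nodules, against 10.17, 10.25 and 10.33 in single transgenic nodules (0.58 ± 0.10, adjusted p = 0.080). Card9 and Casp1, which act with the lectins and the inflammasomes, had log2 fold changes of -0.51 and -0.76 and no overlap between genotypes, but adjusted p-values of 0.13 and 0.17. In the other direction, Cd36, a scavenger receptor that acts with Tlr2 and Tlr6, and Irak1, a kinase downstream of Irak4, had log2 fold changes of 0.96 and 0.23 and no overlap, with adjusted p-values of 0.16 and 0.27. Without array 52543, 52544 or 52545 none of the 36 genes passed in either direction, and without 52541 or 52542 only 1 fell.

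Several lists of cell type markers also differed between the genotypes. As background for these lists, 1.44% of all named genes fell and 0.706% rose. On every double transgenic array 12.0% of all named genes were lower and 9.21% higher, or 14.7% and 11.5% of those above the median of all probe sets. Of 17 neutrophil genes 5 fell (S100a8, S100a9, Ltf, Mmp8 and Ly6g) and none rose, their median log2 fold change was -0.59, and their summed linear intensity was 11953 to 14834 on the double transgenic arrays and 23918 to 26672 on the single transgenic arrays. Of the 17 genes, 12 were lower on every double transgenic array, 0 were higher on every one and 5 overlapped. S100a8, S100a9 and Ltf are also expressed by epithelial cells, the S100 pair by squamous epithelium. Without these 3 genes, a choice made after their values were seen, 2 of 14 fell, the median was -0.52, and the sums were 6539 to 8360 in double transgenic and 8942 to 10079 in single transgenic nodules. Cd177, the brightest of the 14, weighed most in these sums and differed by 0.02 (adjusted p = 0.98, limma). Of the 14, Csf3r, Mmp9, Cxcr2, Retnlg, Fpr1, Itgam and Il1r2 did not pass but were lower on every double transgenic array. So were Mmp8 and Ly6g, which fell. Of 7 pan-leukocyte genes 2 fell (Cd53 and Cd37), all 7 were lower on every double transgenic array, and the sums were 1654 to 2388 in double transgenic and 3237 to 3737 in single transgenic nodules. None of 13 monocyte and macrophage genes passed, and the sums overlapped, at 7513 to 9696 in double transgenic and 8005 to 9322 in single transgenic nodules. Their median of -0.06 covered genes of both signs: Ly6c2 and Ccr2, of inflammatory monocytes, and Csf1r were lower on every double transgenic array (-0.66, -0.71 and -0.37, adjusted p = 0.1003, 0.34 and 0.42), while Mertk was higher on every one (0.30, adjusted p = 0.16) and Mrc1, of resident macrophages, differed by 0.57 with overlap (adjusted p = 0.32). Of 9 dendritic cell genes Flt3 fell (-0.71, adjusted p = 0.068), and the sums were 2844 to 4583 in double transgenic and 4760 to 5339 in single transgenic nodules. Within the neutrophil list, Elane, Mpo, Camp and Ngp, granule genes that neutrophils express while immature, were below the median of all probe sets on every array, at 5.05 to 6.15 in double transgenic nodules and 4.93 to 6.04 in single transgenic nodules. None of these passed. Ltf and Mmp8, granule genes of the same list, fell by -0.76 and -0.88 (adjusted p = 0.065 and 0.042, limma). Ly6g, which fell, was also below that median on every array. It read 5.43 to 5.68 in double transgenic nodules and at most 6.32 in single transgenic nodules.

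Of 7 T and NK genes 2 fell, Gzmb and Il2rb (-1.10 and -1.22, adjusted p = 0.052 and 0.0063), and the sums were 855 to 1748 in double transgenic and 2615 to 3172 in single transgenic nodules. Cd3g and Cd3e were lower on every double transgenic array (-1.47 and -1.29, adjusted p = 0.24 and 0.103). Cd8a and Ncr1 were higher on every one (0.30 and 0.23, adjusted p = 0.31 and 0.48), and Cd4 overlapped (-0.14). Gzmb, Cd8a and Ncr1 were below the median of all probe sets on every array. Of 6 squamous epithelial genes Krt14 fell (-0.57, adjusted p = 0.042), all 6 values were negative, and the sums were 41340 to 47503 in double transgenic and 53940 to 56236 in single transgenic nodules. None of 5 smooth muscle genes passed, all 5 values were positive with a median of 0.51, and the sums were 35627 to 41215 in double transgenic and 20679 to 37562 in single transgenic nodules. In whole nodules, fewer cells of a type and less RNA per cell cannot be told apart, and the part of these cell types in the sensor results was not tested.

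**Figure D4:**
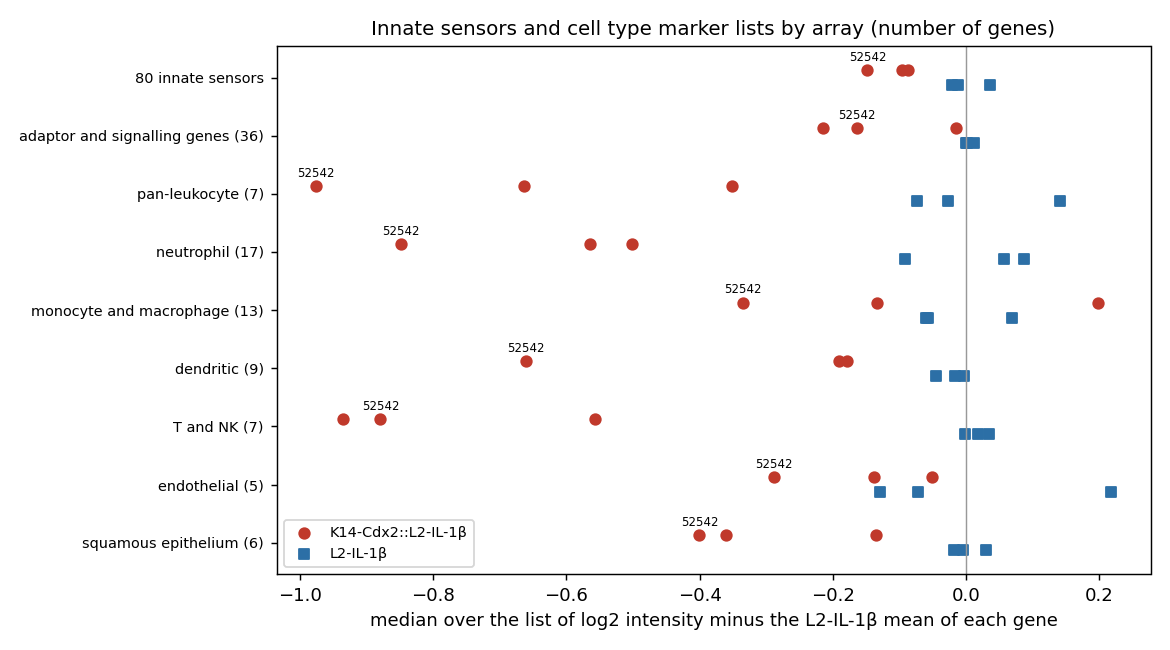
Median over each gene list of log2 intensity minus the gene's *L2-IL-1β* mean, on the *K14-Cdx2::L2-IL-1β* arrays (red circles, 52542 labelled) and the *L2-IL-1β* arrays (blue squares). The *K14-Cdx2::L2-IL-1β* arrays lie furthest to the left for pan-leukocyte, neutrophil, and T and NK genes, between -0.98 and -0.35, and on both sides of the *L2-IL-1β* arrays for monocyte and macrophage genes.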

How the data were processed

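Total RNA of SCJ nodules was hybridized to Affymetrix mouse gene arrays, 1 array per sample. The authors deposited log2 intensities for 34365 probe sets on 6 arrays in 2 tables, whose values were identical; no source used here gives the normalization behind them. Array medians lay between 6.62 and 6.65. Columns with the authors' own comparisons (fold changes, p-values and SAM statistics) were not used.

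Each array was assigned to a genotype by its label. Genotype was the only term of a fit to all probe sets by lmFit and eBayes of limma 3.58.1 (R 4.3.3), with Benjamini-Hochberg adjustment over all of them and a threshold of 0.10, the false discovery rate of the study; 2-fold was counted separately. Intervals are 95% intervals from the moderated standard error. A gene was read from its probe set with the highest mean. Background shares are over 24647 named genes. Of the 80 members, 40 had a mean above the median of all probe sets, and none was filtered out. Array intensities carry no read depth, the number of arrays limits precision, and intensities of different probe sets are not levels that can be set against each other.

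Named genes were those that passed, the brightest, lowest and highest of each class, and 28 sensors listed by name; Tlr1, Clec2g, Clec2l, Nlrx1 and Naip2, and the members of the signalling and marker lists, were named after their values were seen. Members, classes and lists were chosen with earlier results of these data known. The fit was tested on simulated data. Alternatives were median centring, quantile normalization, leaving out dim probe sets, a trended robust fit, array weights, SAM, means over probe sets, an adjusted p under 0.05, and leaving out each array. Probe set positions are those of the files (NCBIM37) and promoter windows those of RefSeq (GRCm38.p6), read with Python 3.11.15; the 2 were not mixed.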

Additional observations from a re-analysis of the deposited data

How the results depend on the processing

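The counts of sensors that fell and rose were 5 and 0 under median centring, quantile normalization and a trended robust fit, and 6 and 0 with array weights, with dim probe sets left out, and with means over probe sets. SAM gave 9 that fell, with the same 5 among them, and 7 of the signalling genes that fell, and array weights gave 5 signalling genes and 1 sensor lower by 2-fold. Over all probe sets, SAM passed 1765 and array weights 1528, against 631 in the unweighted limma fit. At an adjusted p under 0.05, 2 sensors (Clec4e and Trem1) and 0 signalling genes fell, and 0 signalling genes rose. With dim probe sets left out, the median log2 fold change was -0.32 over the 40 sensors that remained. Without 1 array, the sensors that fell numbered 0 to 6, those lower by 2-fold 0 to 2, the signalling genes that fell 0 to 4 and rose 0 to 2. The sensors whose genotypes did not overlap then numbered 20 to 33, a count that rises by construction with fewer arrays. The share of all named genes was not computed for these reduced sets, so this count has no background to be read against.

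The 5 genes that fell stayed negative under every alternative. With array weights Clec9a was 0.051, Nlrp6 -0.034 and Naip2 0.037, opposite in sign to the values above. Leaving out 1 array also turned the sign of genes near 0, with log2 fold changes of -0.21 to 0.0076 for Clec14a, -0.027 to 0.13 for Clec16a, -0.011 to 0.30 for Clec4b2, -0.41 to 0.029 for Clec4n, -0.13 to 0.085 for Clec9a, -0.26 to 0.26 for Naip2, -0.072 to 0.41 for Nlrc4, -0.18 to 0.026 for Nlrp4b, -0.093 to 0.10 for Nlrp6, -0.029 to 0.12 for Nod1, -0.25 to 0.10 for Tlr4 and -0.093 to 0.043 for Tlr7. None of these passed the test under any alternative. The cause was not tested. No paired analysis was possible because no number in the labels (52540 to 52545) occurs in both genotypes. A fall of a dim sensor smaller than its interval cannot be seen with 3 arrays a genotype.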
